A study of Mus musculus with 14 samples.

Results

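Mcpt8, Prss34, Prg2, Epx, Cpa3, Fcer1a, Ms4a2, Gata2, Hdc and Cd200r3 are genes that mark basophils, mast cells and eosinophils, and they were measured here in libraries of sorted splenic regulatory T cells. They are 10 of the 30284 mouse genes in the tables. They were drawn together because of how most of them differed between the groups in these same libraries, so their levels and fold changes are a description and carry no test. Tests are given only for genes other than the 10. These are other genes of the same cells, Tln1, markers of regulatory T cells and of other cells, and neighbours on the chromosome.

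Messenger RNA had been sequenced from Foxp3+YFP+ regulatory T cells, sorted by flow cytometry from spleens of C57/B6 mice, in a study of integrin activation and peripheral tolerance. In the knockout mice, with genotype Tln1fl/fl Foxp3cre/wt and labelled talin KO, both alleles of Tln1 were floxed, and in the controls, with genotype Tln1wt/wt Foxp3cre/wt, both were wild type. Tln1 encodes talin-1, which switches integrins to their active state. Mice of both groups carried 1 Foxp3cre allele and 1 wild-type Foxp3 allele, so deletion was limited to cells that had used the Cre allele, and Foxp3 lies on the X chromosome. No treatment or age is given, and a library came from 1 or 2 animals. The 14 sequenced samples formed 3 knockout-labelled and 4 control units of 2 samples each, where a unit is the first number of a sample's title. The meaning of the second number is not stated, so the counts of both samples were added, and n is 3 knockout-labelled and 4 control units throughout.

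Basophils, mast cells and eosinophils are granule-filled cells of the myeloid lineage that act in allergy and in defence against parasites. Basophils and mast cells carry the high-affinity IgE receptor, a complex of an IgE-binding alpha chain, a signal-amplifying beta chain and paired gamma chains; its crosslinking releases histamine, proteases and lipid mediators and starts cytokine production. Eosinophils store cationic proteins and a peroxidase in their granules. Proteins of these granules serve as markers of the cells that hold them.

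The knockout-labelled units held 38811489 to 56109143 estimated reads and the control units 12851425 to 39214264, so that 3 reads, the limit that a count of 0 allows, correspond to 0.0531 to 0.0766 CPM (counts per 1000000 counts of a unit) in a knockout-labelled unit and to 0.0749 to 0.236 CPM in a control unit. The targeted gene did not fall: Tln1 had 788, 901 and 1014 CPM in the knockout-labelled units and 634, 543, 847 and 649 CPM in the control units (log2 fold change 0.43 ± 0.18, SE; adjusted p = 0.126 by edgeR's quasi-likelihood test), so the first group is called knockout-labelled. These counts cover whole transcripts, and the exons that deletion removes were not examined. Foxp3, the defining factor of regulatory T cells, stood at 428 ± 76.1 CPM in knockout-labelled and 419 ± 71.0 CPM in control units (SD). Of 8 regulatory T cell markers, 3 fell by the same test, where 6.52% of all genes tested did. The 8 markers summed to 2448 to 3402 CPM in knockout-labelled and 3927 to 4739 CPM in control units. Their median log2 fold change was -0.51. Ikzf2, the most abundant of them, had 589 ± 188 CPM in knockout-labelled and 1113 ± 287 CPM in control units (SD). Knockout-labelled unit 3 stood apart: its erythroid markers summed to 4534 CPM, against 187 and 447 CPM in the other knockout-labelled units and 9.17 to 117 CPM in the control units, and its neutrophil precursor markers summed to 1432 CPM, against 146 and 174 CPM and 1.19 to 8.73 CPM. The levels of the 10 genes are therefore given unit by unit, and fold changes of the 10 genes and of the named list genes that move by over 1.5 times without unit 3 are also given without it.

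Together the 10 genes were more abundant in every knockout-labelled unit than in every control unit. Their levels summed to 73.9, 69.5 and 175 CPM over the knockout-labelled units 1 to 3, against 19.3, 11.9, 17.0 and 14.6 CPM in control units 1 to 4. In TPM, a scale that allows for transcript length, the sums were 55.6, 50.9 and 139 TPM against 8.59, 7.10, 10.2 and 7.32 TPM. For 9 of the 10 genes, all but Ms4a2, every knockout-labelled unit lay above every control unit, also when knockout-labelled unit 3 was left out. The same held for 16.7% of the 15775 genes tested, and for 19.4% without unit 3. All 10 genes passed the filter on low counts, and 8 of them lay past a false discovery rate of 0.05 in the higher direction, where 7.07% of all genes tested did, and 0 in the lower direction, where 6.52% did. Since the genes were chosen on this contrast, nothing is read from these counts. Their median log2 fold change was 5.23, or 5.13 with the gene that had no control read at its lower bound, against 0.06 over all genes tested. In bulk RNA of sorted cells, more cells of a type and more RNA per cell cannot be told apart.

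**Figure D1:**
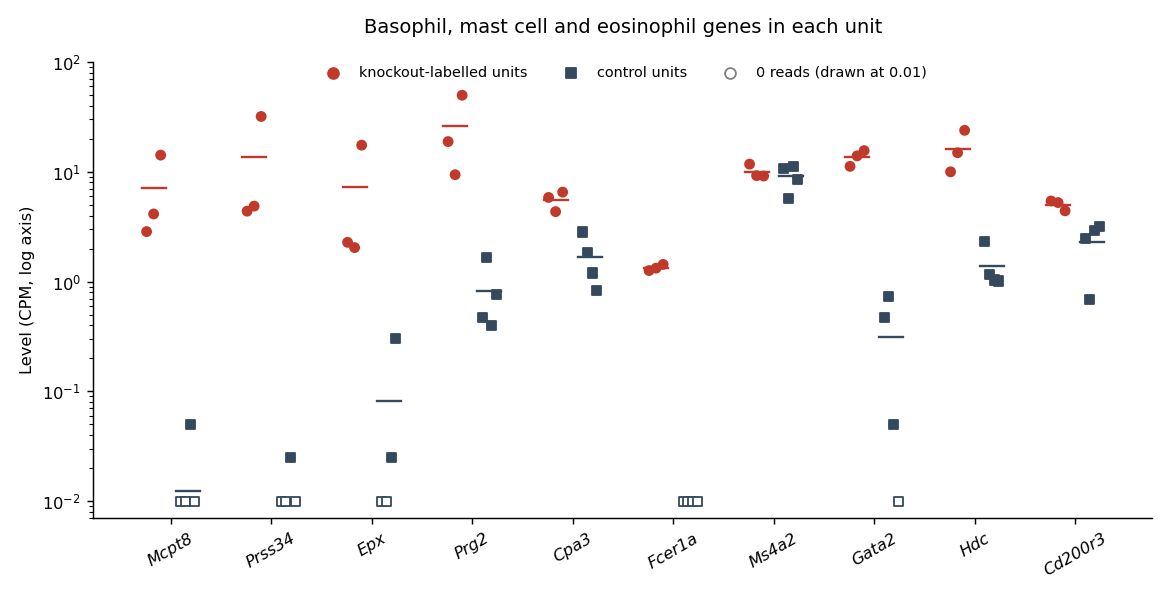
Level of each of the 10 genes in each unit, in CPM on a log axis. Circles are the 3 knockout-labelled units and squares the 4 control units, lines are group means of at least 0.01 CPM, and open symbols are units with 0 reads, drawn at 0.01. The groups overlap only for Ms4a2, and Fcer1a has 0 reads in all 4 control units.

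Promoter sequences are shown for 4 of the genes because the group is tied to the GATA factors, of which Gata2 is itself one of the 10. The windows run from 250 bases before to 50 bases after the RefSeq transcription start on build GRCm38.p6, and 9 of the 10 genes had an entry. Both strands were searched for the hexamer AGATAA and for its variants that begin with T, end with G, or both; matches on the given strand or its complement are in capitals. At least 1 match was found for 6 of the 9 genes (Prss34, Cpa3, Fcer1a, Ms4a2, Hdc and Cd200r3), where 29.8% of the 32851 promoters of the same length in the table hold one. The printed windows are chr14:56085148-56085447 (minus strand) for Mcpt8, a protease gene with no match, chr3:20242132-20242431 (minus strand) for the protease gene Cpa3, and chr1:173227180-173227479 (minus strand) and chr19:11623670-11623969 (minus strand) for the IgE receptor genes Fcer1a and Ms4a2:
Mcpt8: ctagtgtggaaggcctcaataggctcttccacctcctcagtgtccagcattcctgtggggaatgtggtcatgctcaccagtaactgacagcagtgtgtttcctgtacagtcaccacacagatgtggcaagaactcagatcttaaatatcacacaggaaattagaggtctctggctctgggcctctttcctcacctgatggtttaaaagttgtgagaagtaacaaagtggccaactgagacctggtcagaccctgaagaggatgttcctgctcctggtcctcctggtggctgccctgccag
Cpa3: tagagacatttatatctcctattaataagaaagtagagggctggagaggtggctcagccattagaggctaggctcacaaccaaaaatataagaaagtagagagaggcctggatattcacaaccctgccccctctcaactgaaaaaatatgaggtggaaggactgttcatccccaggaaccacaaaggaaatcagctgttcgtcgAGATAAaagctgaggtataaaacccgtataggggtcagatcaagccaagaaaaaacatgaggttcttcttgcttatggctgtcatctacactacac
Fcer1a: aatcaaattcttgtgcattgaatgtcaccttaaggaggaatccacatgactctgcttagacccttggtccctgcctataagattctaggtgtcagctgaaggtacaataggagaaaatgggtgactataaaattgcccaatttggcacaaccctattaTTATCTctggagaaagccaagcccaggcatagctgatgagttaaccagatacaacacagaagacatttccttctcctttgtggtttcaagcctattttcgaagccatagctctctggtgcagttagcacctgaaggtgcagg
Ms4a2: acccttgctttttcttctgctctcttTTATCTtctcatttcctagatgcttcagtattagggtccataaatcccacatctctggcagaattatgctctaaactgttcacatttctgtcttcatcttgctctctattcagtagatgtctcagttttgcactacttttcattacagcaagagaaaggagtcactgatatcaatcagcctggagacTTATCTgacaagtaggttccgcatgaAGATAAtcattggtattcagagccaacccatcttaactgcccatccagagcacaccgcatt
In the printed Cpa3 window the hexamer begins 46 bases before the start, and in the Fcer1a window 92 bases before it. The Ms4a2 window holds 3 matches, beginning 224, 37 and 11 bases before the start. The window of Cd200r3 also held 3. Among other motifs, TTGCNNAA was found for 2 of the 9 genes (10.8% of all promoters), TGTGGT for 3 (16.8%), and TATAAA on the coding strand for 3 (8.32%), namely Epx, Cpa3 and Fcer1a. A match is a string of letters in a window and was not tested as a binding site.

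Prg2, which encodes the major basic protein of eosinophil granules, was the most abundant of the 10 genes per length in each knockout-labelled unit. It had 18.9, 9.42 and 49.9 CPM across knockout-labelled units 1 to 3 and 0.472, 1.66, 0.400 and 0.762 CPM in control units 1 to 4. The groups did not overlap, and unit 3 was the highest. The means were 26.0 ± 21.2 CPM in knockout-labelled and 0.824 ± 0.580 CPM in control units (SD), a 31.6-fold difference, with a log2 fold change of 4.98 ± 0.76 (SE), or 4.10 without knockout-labelled unit 3 and 5.63 without control unit 2. In TPM, Prg2 made up 42.4%, 26.0% and 43.6% of the summed level of the 10 genes in knockout-labelled units 1 to 3. The gene (ENSMUSG00000027073) lies on the plus strand of chromosome 2 from 84980461 to 84983632, on build GRCm38 as are all gene positions here. Epx, which encodes the eosinophil peroxidase (ENSMUSG00000052234; chromosome 11, 87864000 to 87875536, minus strand), had 2.28, 2.04 and 17.5 CPM in the knockout-labelled units, against 0, 0, 0.0250 and 0.305 CPM in the control units. Its 1171 reads in the knockout-labelled units stand against 5 in the controls, of which 4 came from control unit 4. The group means were 7.27 ± 8.86 CPM in knockout-labelled and 0.0824 ± 0.149 CPM in control units (SD), an 88.2-fold difference; the log2 fold change was 6.74 ± 1.38 (SE), 4.93 without knockout-labelled unit 3 and 8.77 without control unit 4.

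Mcpt8 and Prss34 encode serine proteases of the granules of mouse basophils, and Mcpt8 serves as a basophil marker in mice. Mcpt8 (ENSMUSG00000022157; chromosome 14, 56082166 to 56085273, minus strand) had 129, 162 and 802 reads in knockout-labelled units 1 to 3, which is 2.86, 4.13 and 14.2 CPM, against 0, 0, 2 and 0 reads in control units 1 to 4. Prss34 (ENSMUSG00000056399; chromosome 17, 25298394 to 25300165, plus strand) had 198, 191 and 1803 reads, or 4.38, 4.87 and 31.9 CPM, against 0, 0, 1 and 0 reads. Both proteases were thus present in all 3 knockout-labelled units and at or near 0 in the controls. With so few control reads, the pooled ratio of knockout-labelled over control units was 335 for Mcpt8 (95% counting interval 92.5 to 2771) and 1344 for Prss34 (241 to 53112), where the exact interval covers counting error only. The means over the knockout-labelled units were 7.06 ± 6.22 CPM for Mcpt8 and 13.7 ± 15.8 CPM for Prss34 (SD). The fitted log2 fold change of Mcpt8 was 8.12 ± 0.91 (SE), and 7.10 without knockout-labelled unit 3; that of Prss34 was 9.84 ± 1.22 (SE), and 8.24 without it. Without control unit 3, which held all of their control reads, the fits gave 10.79 and 11.74, values that are no bounds. No 31-base word of either gene occurs in another gene.

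Cpa3 encodes carboxypeptidase A3, a granule protease of mast cells and basophils (ENSMUSG00000001865; chromosome 3, 20215620 to 20242181, minus strand). It had 5.84, 4.34 and 6.54 CPM in the knockout-labelled units and 2.83, 1.86, 1.20 and 0.838 CPM in the control units. Cpa3 was therefore detected in every control unit, the groups lay close to each other without overlap, and knockout-labelled unit 3 did not stand out. The means of 5.57 ± 1.12 CPM in knockout-labelled and 1.68 ± 0.875 CPM in control units (SD) differed 3.31-fold, with a log2 fold change of 1.74 ± 0.43 (SE).

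Among the genes of the IgE receptor chains, the groups overlapped for Ms4a2 and not for Fcer1a and Fcer1g. Fcer1a, the IgE-binding alpha chain (ENSMUSG00000005339; chromosome 1, 173221284 to 173227214, minus strand), had 57, 52 and 81 reads in knockout-labelled units 1 to 3 and 0 reads in all 4 control units. Its levels of 1.26, 1.33 and 1.43 CPM in the knockout-labelled units were the most even among the 10 genes, with a mean of 1.34 ± 0.0873 CPM (SD). Against 3 reads over the pooled controls, or 0.0347 CPM, the level was at least 38.8-fold higher in the knockout-labelled units. Ms4a2, the beta chain (ENSMUSG00000024680; chromosome 19, 11615523 to 11623719, minus strand), had 11.8, 9.24 and 9.16 CPM in the knockout-labelled units, against 10.8, 5.76, 11.3 and 8.53 CPM in the control units. The groups overlapped, and the means of 10.05 ± 1.48 CPM in knockout-labelled and 9.08 ± 2.51 CPM in control units (SD) gave a log2 fold change of 0.15 ± 0.28 (SE), which was -0.02 without control unit 2 and 1.01 with an offset for GC content and length. Ms4a2 was the most abundant of the 10 genes in every control unit, at 29.7% to 51.9% of their summed TPM, against 3.76% to 9.79% in the knockout-labelled units. Fcer1g, the gamma chain that Fc receptors of many myeloid cells share, was singled out after its values were seen. It had 27.9, 15.2 and 30.9 CPM in the knockout-labelled units and 8.26, 0.879, 0.450 and 3.05 CPM in the control units, without overlap. The gene did not pass edgeR's test (adjusted p = 0.104, log2 fold change 3.01 ± 1.01, SE).

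The reads of Ms4a2 were spread differently over its annotated transcripts in the groups. The transcript Ms4a2-204 ends in an exon of 2049 bases (chromosome 19, 11615523 to 11617571), where the last exon of Ms4a2-201 spans 615 bases (11616957 to 11617571). Ms4a2-204 had 11.1, 8.93 and 7.94 CPM in the knockout-labelled units and 10.8, 5.76, 11.2 and 8.53 CPM in the control units. The other 4 transcripts of Ms4a2 together had 0.657, 0.314 and 1.21 CPM in the knockout-labelled units, against 0, 0, 0.0999 and 0 CPM in the control units. In reads, these 4 transcripts held 29.7, 12.3 and 68.6 estimated reads against 4 in all controls, so on them the groups did not overlap. Cd200r3 and Hdc are described in the same way with each gene. The transcript classes (a retained intron or an exon of at least 2000 bases, against all others) were chosen after the values were seen, and the assignment of a read to a transcript is kallisto's estimate.

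Cd200r3 encodes a surface receptor of the CD200 receptor family found on mouse basophils and mast cells (ENSMUSG00000036172; chromosome 16, 44943678 to 44981380, plus strand). Its levels were 5.43, 5.25 and 4.41 CPM in the knockout-labelled units and 2.49, 0.686, 2.91 and 3.16 CPM in the control units. The means of 5.03 ± 0.542 CPM in knockout-labelled and 2.31 ± 1.12 CPM in control units (SD) differed 2.18-fold, the smallest difference after Ms4a2, with a log2 fold change of 1.12 ± 0.46 (SE), and 1.71 with the offset for GC content and length. On Cd200r3-209, which ends in an exon of 3140 bases, and the retained-intron transcript Cd200r3-207 together, the levels were 3.25, 3.67 and 2.54 CPM in the knockout-labelled units and 2.49, 0.684, 2.91 and 3.16 CPM in the control units, so on these the groups overlapped. On the other 8 transcripts the levels were 2.18, 1.58 and 1.87 CPM in the knockout-labelled units (98.6, 61.9 and 105.7 estimated reads), against 0 reads in every control unit. All control reads of Cd200r3 therefore lay on transcripts with a long last exon or a retained intron, while 30.1% to 42.4% of the reads in knockout-labelled units lay on the others. Of the 31-base words of Cd200r3, 3.50% occur in another gene, and of those of Ms4a2 3.86%; for the other 8 genes the share was under 1%.

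**Figure D2:**
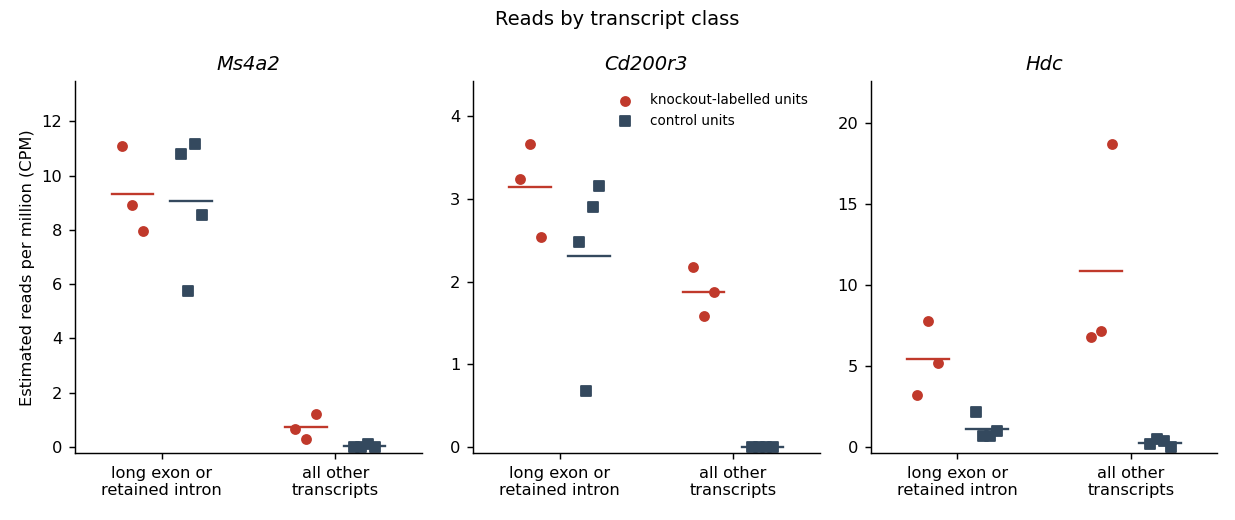
Estimated level (CPM) on transcript classes of Ms4a2, Cd200r3 and Hdc in each unit, with circles for the 3 knockout-labelled units, squares for the 4 control units and lines for group means. On all other transcripts the control units lie between 0 and 0.479 CPM and below every knockout-labelled unit, while on the transcripts with a long exon or a retained intron the groups overlap for Ms4a2 and Cd200r3 and not for Hdc.

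Hdc encodes histidine decarboxylase, the enzyme that makes histamine (ENSMUSG00000027360; chromosome 2, 126593667 to 126619299, minus strand). It had 10.004, 14.9 and 23.9 CPM in the knockout-labelled units and 2.30, 1.16, 1.03 and 1.01 CPM in the control units. The groups did not overlap, with means of 16.3 ± 7.03 CPM in knockout-labelled and 1.38 ± 0.619 CPM in control units (SD), an 11.8-fold difference and a log2 fold change of 3.59 ± 0.40 (SE). The retained-intron transcript Hdc-204 had 3.21, 7.79 and 5.20 CPM in the knockout-labelled units, against 2.14, 0.679, 0.669 and 1.01 CPM in the control units. The other 4 transcripts had 6.80, 7.14 and 18.7 CPM in the knockout-labelled units and 0.157, 0.479, 0.365 and 0 CPM in the control units, so the groups overlapped on neither class. The other transcripts held 68.0%, 47.8% and 78.2% of the Hdc reads in the knockout-labelled units, against 6.85%, 41.4%, 35.3% and 0% in the control units. Gata2 encodes a zinc-finger factor that blood progenitors, mast cells and basophils depend on (ENSMUSG00000015053; chromosome 6, 88193891 to 88207032, plus strand). It had 11.2, 13.98 and 15.6 CPM in the knockout-labelled units and 0.472, 0.733, 0.0499 and 0 CPM in the control units. Its mean was 13.6 ± 2.22 CPM in knockout-labelled and 0.314 ± 0.351 CPM in control units (SD), a 43.4-fold difference with a log2 fold change of 5.47 ± 0.92 (SE; 6.55 without control unit 2), and the knockout-labelled units were close to each other.

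The 10 genes differed in how they were spread over the knockout-labelled units. Set against the mean of units 1 and 2, unit 3 was 8.10-fold higher for Epx, 6.90-fold for Prss34, 4.06-fold for Mcpt8 and 3.53-fold for Prg2. For Hdc the ratio was 1.92, for Cpa3 1.28, for Gata2 1.24 and for Fcer1a 1.11, and it lay under 1 for Ms4a2 and Cd200r3, at 0.872 and 0.827. Epx, Prss34, Mcpt8 and Prg2, all genes of granule proteins, thus had a steeper spread than the other 6 genes, among them the granule protease gene Cpa3. The median ratio was 1.60 over the 10 genes and 0.979 over all genes tested. Among the marker lists of other cells, the median ratio was 8.40 for 6 neutrophil precursor genes (3.84 to 10.3), 17.0 for 11 erythroid genes, 1.87 for 6 monocyte and macrophage genes, 1.56 for 3 megakaryocyte and platelet genes and 1.45 for 5 progenitor genes. It was 1.21 for 10 late neutrophil genes, 0.507 for 5 B cell genes, 0.425 for 5 dendritic cell genes and 0.347 for 4 natural killer and CD8 T cell genes. The part of these other cells in the levels of the 10 genes was not tested.

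**Figure D3:**
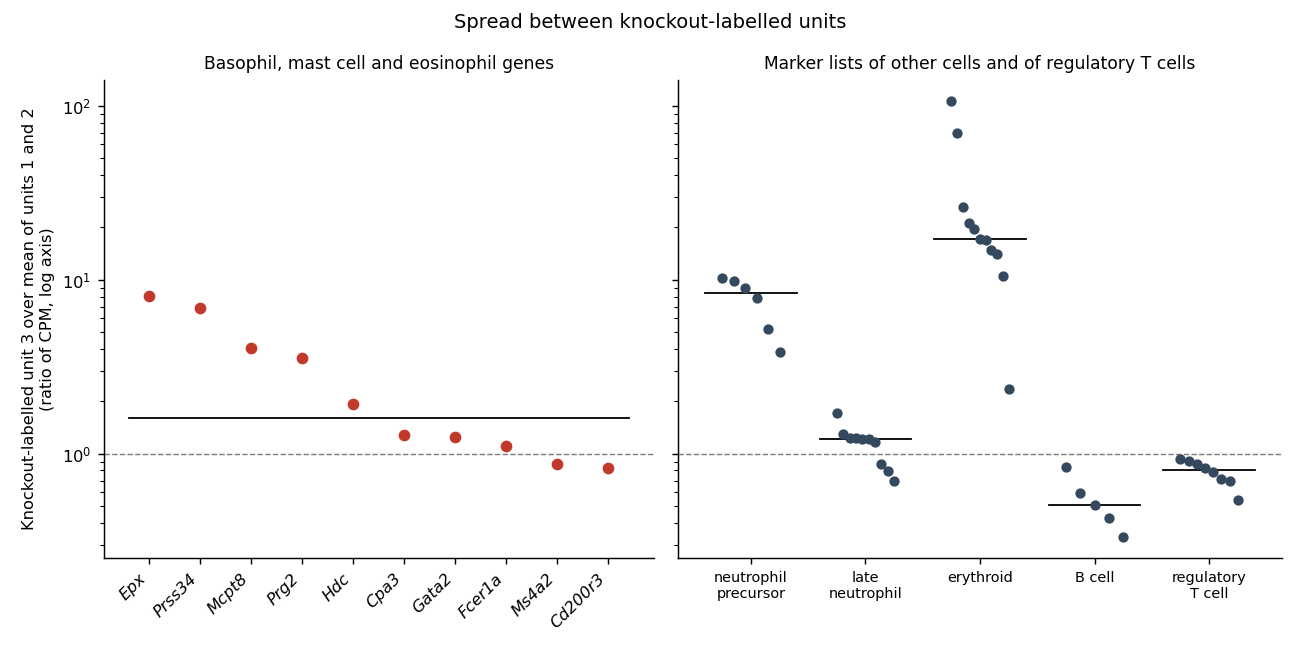
Level in knockout-labelled unit 3 over the mean of knockout-labelled units 1 and 2 (ratio of CPM, log axis), for each of the 10 genes on the left and for the genes of marker lists on the right. Horizontal lines are medians and the dashed line is a ratio of 1. Epx, Prss34, Mcpt8 and Prg2 lie between 3.53 and 8.10, and the median of the neutrophil precursor list is 8.40.

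Markers of other cells were also more abundant in the knockout-labelled units. The 6 neutrophil precursor markers (Mpo and Elane at the highest level) had 5 rises by edgeR's test and 2 each by the DESeq2 Wald test and limma-voom. The 10 late neutrophil markers (S100a9 and Ngp) summed to 172 to 365 CPM in knockout-labelled and 12.3 to 33.8 CPM in control units with 8 rises. The 11 erythroid markers had 0 rises by edgeR's test, with 10 at an unadjusted p under 0.05, 6 rises by the DESeq2 Wald test and 1 by limma-voom. B cell markers (Cd79a and Ms4a1) summed to 117 to 249 CPM in knockout-labelled and 20.5 to 49.5 CPM in control units with 4 of 5 rises, and monocyte and macrophage markers (Csf1r and Lyz2) to 246 to 647 CPM and 69.5 to 146 CPM with 3 of 6. Progenitor markers (Myb and Kit) summed to 155 to 258 CPM in knockout-labelled and 61.9 to 93.2 CPM in control units, with 3 of 5 rises. The sums were 13.1 to 20.8 and 4.04 to 5.82 CPM for megakaryocyte and platelet markers (2 of 3 tested rose), 36.5 to 62.3 and 4.25 to 15.9 CPM for dendritic cell markers (1 of 5), and 12.0 to 42.3 and 5.44 to 11.0 CPM for natural killer and CD8 T cell markers (2 of 4). No marker on these 9 lists was at 0 in all units.

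Other genes of basophils, mast cells and eosinophils, none of them among the 10, were tested on 7 lists. The lists were drawn up with earlier results of these data known, so the share that rose is no independent support. Of 92 genes, 72 passed the count filter, 28 rose and 0 fell by edgeR's quasi-likelihood test (38.9% rose, against 7.07% of all genes). At an unadjusted p under 0.05, 5 were lower; the DESeq2 Wald test called 3 lower and limma-voom 2. The median log2 fold change of the 72 genes was 2.11, against 0.06 over all genes. Genes with 0 or few control reads passed the count filter only through the knockout-labelled units. Among them were Cebpe, Il6, Prg3, Cd63, Siglecf, Alox5, Alox15, Ccl3 and Ccl4. Their tests could therefore point only upward. The number of rises fell to 18 without knockout-labelled unit 3, and to 18 without control unit 2. Of the 92 genes, 24 averaged 10 CPM or more in the control units, so these lists are not peculiar to the cells they name, and Kit is on the progenitor list too. The labels do not say which animals stand behind which unit, so p-values reflect only the spread from unit to unit, part of which may be technical.

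Of the surface receptor genes, 7 of 18 tested rose, led by Cd63, a granule-membrane tetraspanin exposed when basophils degranulate. Cd63 had 5.64 ± 3.76 CPM in knockout-labelled and 0.0828 ± 0.0715 CPM in control units (SD), with a log2 fold change of 5.94 ± 0.70 (SE, edgeR adjusted p = 0.00125) that was 5.24 without knockout-labelled unit 3, though 40.8% of its 31-base words occur in other genes. Csf2rb, the signalling chain shared by the receptors for interleukin 3, interleukin 5 and GM-CSF, had 27.9, 25.4 and 38.7 CPM in the knockout-labelled units and 3.49, 1.90, 0.540 and 1.24 CPM in the control units. Its log2 fold change was 4.15 ± 0.56 (SE, edgeR adjusted p = 0.00598), and that of its neighbour Csf2rb2, an interleukin 3 receptor chain of mice, 2.18 ± 0.43 (adjusted p = 0.0138). Of the 31-base words of these 2 genes, 30.2% and 30.5% occur in other genes. Siglecf, a sialic acid receptor that marks mouse eosinophils, had 2.25 ± 0.754 CPM in knockout-labelled and 0.110 ± 0.149 CPM in control units (SD; log2 fold change 4.38, or 5.15 without control unit 1, edgeR adjusted p = 0.0121). Cd63 and Siglecf passed the count filter through the knockout-labelled units alone, so their tests could point only upward. Kit, Fcgr2b and Csf2ra also rose. Il3ra and Il5ra, the specific chains for interleukin 3 and interleukin 5, did not pass, unlike Csf2ra, that for GM-CSF: Il3ra had a log2 fold change of 0.03 ± 0.29 (SE) and Il5ra one of 1.37 ± 0.59 (SE; edgeR adjusted p = 0.951 and 0.136). The eotaxin receptor gene Ccr3 had 26.4, 6.79 and 33.5 CPM in the knockout-labelled units and 14.9, 3.27, 2.00 and 1.75 CPM in the control units, groups that overlap. Il1rl1, the interleukin 33 receptor that regulatory T cells also carry, had a log2 fold change of -0.44 ± 0.43 (SE, edgeR adjusted p = 0.526). It had 9.84, 11.9 and 32.3 CPM in the knockout-labelled units and 30.5, 17.4, 22.2 and 27.7 CPM in the control units. Without knockout-labelled unit 3, edgeR's test called Il1rl1 lower. Il3ra, Il5ra, Ccr3 and Il1rl1 were singled out after their values were seen.

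Of 15 genes that signal below the IgE receptor, 6 rose. Syk, the kinase recruited by the gamma chain, had 81.5, 65.4 and 83.7 CPM in the knockout-labelled units and 15.8, 3.86, 4.62 and 8.08 CPM in the control units, with a log2 fold change of 3.28 ± 0.51 (SE, edgeR adjusted p = 0.0136). Its call was lost without knockout-labelled unit 3 (log2 fold change 3.21) and without control unit 4 (3.28). Lat2, an adaptor of mast cells and B cells, had 11.2 ± 2.01 CPM in knockout-labelled and 2.27 ± 0.497 CPM in control units (SD; log2 fold change 2.31, edgeR adjusted p = 0.00162), with 52.8% of its words shared. Btk, a kinase that B cells use too, had a log2 fold change of 2.79 ± 0.49 (SE, edgeR adjusted p = 0.0119). Plcg2, the phospholipase of the same cells, had one of 3.53 ± 0.61 (SE, adjusted p = 0.0162), and its call was lost without control unit 2 (3.39); without control unit 1 it was 4.34. Gab2 and Prkcd rose as well. Of 3 other genes on this list that T cells use too, also singled out afterwards, none passed edgeR's test. Plcg1 had a log2 fold change of 0.00 ± 0.14 (SE, adjusted p = 0.997), Lat one of -0.07 ± 0.14 (adjusted p = 0.748) and Lcp2 one of 0.19 ± 0.17 (adjusted p = 0.467). Fyn, a kinase on the same list, had 359, 373 and 270 CPM in the knockout-labelled units. The control units had 453 to 476 CPM, without overlap (log2 fold change -0.49 ± 0.15, SE, edgeR adjusted p = 0.0516). It was called lower with DESeq2 size factors, 10 reads in 3 units, the DESeq2 Wald test, limma-voom, and the GC and length offset.

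Of 7 eosinophil genes, 5 were tested and 2 rose. Both passed the count filter through the knockout-labelled units alone, so their tests could point only upward. Alox15, a lipoxygenase of mouse eosinophils and macrophages, had 2.26, 3.65 and 2.21 CPM in the knockout-labelled units and 0.236, 0, 0.150 and 0.152 CPM in the control units (log2 fold change 4.36 ± 0.70, SE; edgeR adjusted p = 0.00559). Prg3, a homologue of Prg2, had 16, 19 and 111 reads in the knockout-labelled units, against 2 reads in the controls, both in control unit 4. The pooled ratio was 44.8 (95% counting interval 12.2 to 373), the log2 fold change 4.98 ± 1.25 (SE, edgeR adjusted p = 0.0296); it was 3.75 and not past the threshold without knockout-labelled unit 3, and likewise 4.62 without control unit 2 and 4.27 without control unit 3. Without control unit 4, which leaves no control read, the fit gave 8.07, which is no bound. The eosinophil ribonuclease genes Ear1, Ear2 and Ear6 did not pass, with log2 fold changes of 2.62, 2.29 and 3.90, and 70.1%, 60.5% and 7.21% of their words are shared with other genes.

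Of 14 genes of mast cell granules, 3 were tested and 0 rose or fell by edgeR's test, with 2 at an unadjusted p under 0.05 and 1 rise each by the DESeq2 Wald test and limma-voom. The proteases that define connective tissue and mucosal mast cells of mice were at or near 0. Mcpt1, Cma2 and Tpsab1 had 0 reads in all 7 units, as did the receptor gene Mrgprb2. Mcpt4 had 25, 5 and 0 reads in the knockout-labelled units against 0 in the controls, Tpsb2 had 11, 0 and 0 reads against 0, and Cma1 had 36 reads in the knockout-labelled against 9 in the control units. The 3 genes tested, Srgn, Ndst2 and Slc18a2, encode the proteoglycan core, an enzyme of heparin synthesis and an amine transporter, and Srgn averaged 269 ± 15.4 CPM in knockout-labelled and 334 ± 59.0 CPM in control units (SD).

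Of 9 genes tested for lipid mediators and histamine breakdown, 4 rose. Alox5, the 5-lipoxygenase that starts leukotriene synthesis, had a log2 fold change of 5.18 ± 0.71 (SE, edgeR adjusted p = 0.00286). It had 2.81, 1.81 and 4.99 CPM in the knockout-labelled units and 0.157, 0.147, 0.0499 and 0 CPM in the control units. The gene passed the count filter through the knockout-labelled units alone, so its test could point only upward. Its partner Alox5ap had 14.2 ± 7.19 CPM in knockout-labelled and 0.881 ± 0.947 CPM in control units (SD; log2 fold change 4.09, adjusted p = 0.0226). Cyp11a1, the first enzyme of steroid synthesis, had a log2 fold change of 2.50 ± 0.50 (SE, edgeR adjusted p = 0.0129), and Ptgs2, an inducible prostaglandin synthase, one of 5.11 ± 1.19 (SE, adjusted p = 0.0363). The call of Alox5ap was lost without knockout-labelled unit 3 (log2 fold change 3.63), control unit 2 (3.96) or control unit 4 (3.90), and its value without control unit 1 was 5.16. That of Ptgs2 was lost without any 1 of the 3 knockout-labelled units (4.95, 5.13 and 5.17) and without control units 2 and 4 (4.65 and 5.45); without control units 1 and 3 its value was 6.49 and 4.50.

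Of 13 transcription factor genes, 6 rose. Cebpe, a factor of late granulocyte maturation, had 1.11, 0.357 and 3.45 CPM in the knockout-labelled units and 0 reads in all 4 control units, which is at least 52.9-fold higher against 3 reads over the pooled controls (edgeR adjusted p = 0.0186), and at least 21.8-fold without knockout-labelled unit 3. The test of Cebpe could point only upward, since the gene passed the count filter through the knockout-labelled units alone. Spi1, the myeloid and B cell factor PU.1, had 11.6, 8.17 and 21.0 CPM in the knockout-labelled units and 2.44, 0.342, 0.325 and 0.305 CPM in the control units (log2 fold change 4.07 ± 0.85, SE; edgeR adjusted p = 0.0261); the call was lost without knockout-labelled unit 3 (3.61), control unit 2 (3.81) or control unit 4 (3.81), and without control unit 1 the value was 5.37. Irf8 had 59.6 ± 13.6 CPM in knockout-labelled and 22.1 ± 5.14 CPM in control units (SD; log2 fold change 1.44, adjusted p = 0.00378), and Lyl1 a log2 fold change of 2.83 ± 0.40 (SE, adjusted p = 0.00339), or 2.19 without knockout-labelled unit 3. Nfe2 and Lmo2 also rose. Gata1, the GATA factor of erythroid cells, eosinophils and mast cells, was named after its values were seen: it had 26.9, 31.8 and 83.3 CPM in the knockout-labelled units and 23.4, 28.2, 30.3 and 25.1 CPM in the control units, so the groups overlapped, unlike those of Gata2.

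Of 13 cytokine and chemokine genes, 9 were tested and 3 rose. The chemokine genes Ccl3 and Ccl4, which many activated leukocytes express, had log2 fold changes of 6.08 ± 0.44 (SE, edgeR adjusted p = 0.0002) and 6.03 ± 0.53 (SE, adjusted p = 0.000325; 6.65 without control unit 1). Ccl3 had 24.6, 27.8 and 17.4 CPM in the knockout-labelled units and 0.708, 0.195, 0.200 and 0.381 CPM in the control units. Il6 had 180 reads in the knockout-labelled units (1.11, 1.45 and 1.29 CPM) and 0 in the control units, at least 36.8-fold higher (edgeR adjusted p = 0.00589). The tests of Ccl3, Ccl4 and Il6 have the same limit as that of Cebpe. Il4 and Il13, the cytokines most tied to basophils, were singled out after their values were seen: Il4 had 103 reads in knockout-labelled and 47 in control units (adjusted p = 0.691), and Il13 had 19 and 4 reads and was not tested. Il3 and Il9 had 0 reads in all units.

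**Figure D4:**
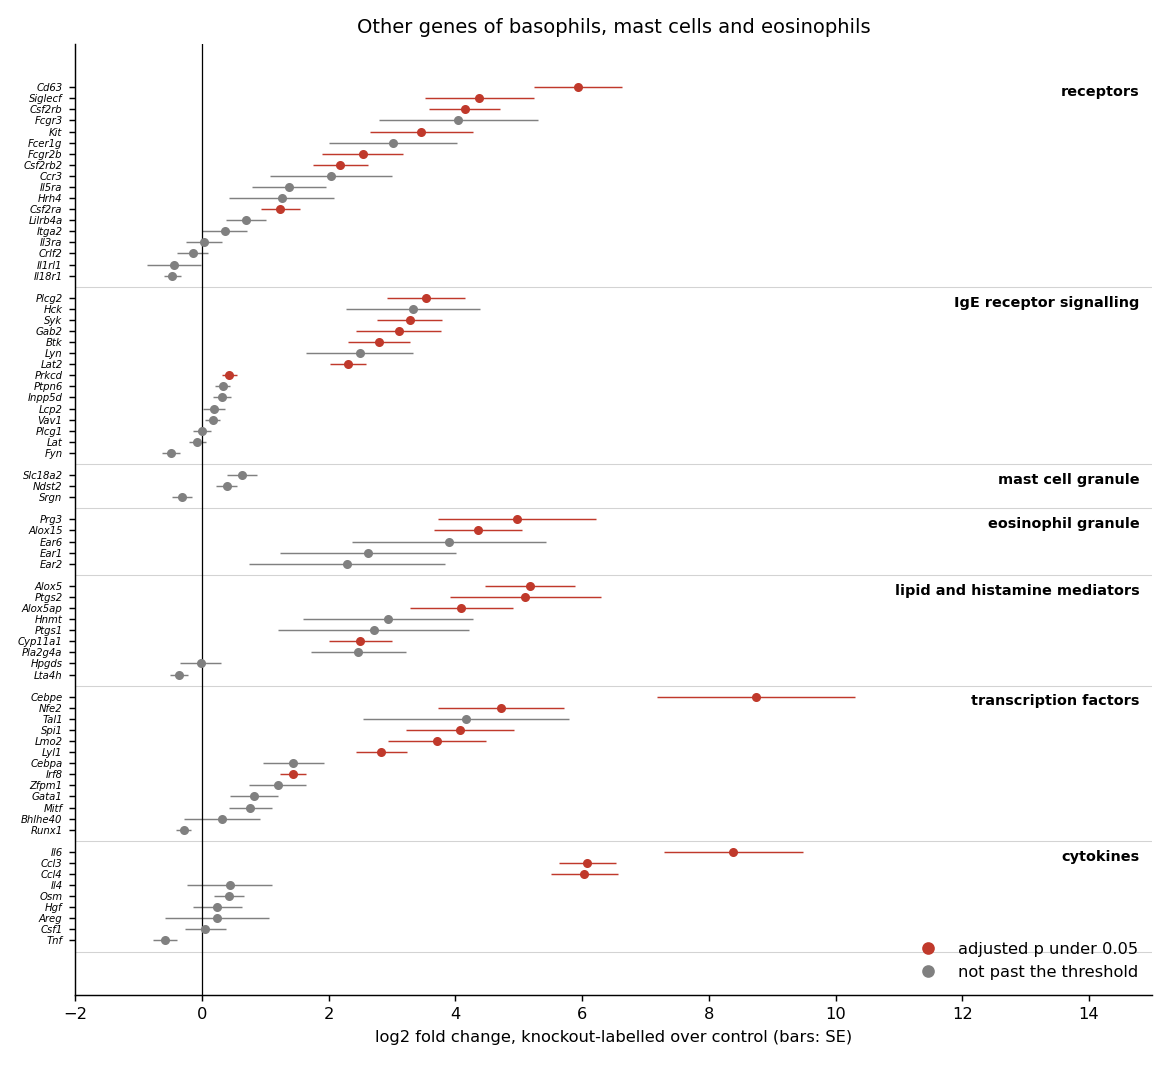
Log2 fold change, knockout-labelled over control, of the 72 tested genes of the 7 lists, with standard errors from edgeR. Red marks an adjusted p under 0.05 over all genes tested, which 28 genes reached, all of them to the right of 0. The fitted values of Cebpe and Il6, which had 0 control reads, are no bounds. Both genes passed the count filter through the knockout-labelled units alone. So did others, among them Prg3, Cd63, Siglecf, Alox5, Alox15, Ccl3 and Ccl4. Tests of such genes could point only upward.

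Several of the 10 genes lie in clusters of related genes, and their neighbours within 100 kb differed in level; this window was chosen after the values were seen. Around Mcpt8, in the mast cell protease and granzyme cluster, 5 of 9 other protein-coding genes had 0 reads in all units (Mcpt1, Gzme, Gzmd, Gzmg and Gzmn). Only Ctsg, the neutrophil protease cathepsin G whose middle lies 17.5 kb from that of Mcpt8, passed the count filter there; it had 485, 419 and 4737 reads in the knockout-labelled units and 2, 8, 5 and 0 in the control units (log2 fold change 7.61 ± 1.25, SE; edgeR adjusted p = 0.0195). The value was 5.90 without knockout-labelled unit 3 and 8.36 without control unit 2, and the call was lost without control unit 4 (7.32). Ctsg passed the filter through the knockout-labelled units alone, so its test could point only upward. Around Prss34, the related serine protease genes Prss28, Prss29, Tpsab1, Tpsb2 and Tpsg1 had 7, 3, 0, 11 and 4 reads in all knockout-labelled units and 0 in the control units. Of the 6 neighbours tested there, 1 rose: the calcium channel gene Cacna1h, at 4.38 ± 0.93 (log2 fold change ± SE, edgeR adjusted p = 0.0317), a call that 5 of 7 fits without 1 unit each lost, with 3.73 without knockout-labelled unit 3. Around Prg2, 1 of 5 neighbours tested rose, namely Prg3. Around Ms4a2, the neighbours moved in both directions by edgeR's test. Ms4a3, whose middle lies nearest, did not pass (log2 fold change 4.40 ± 1.16, SE, edgeR adjusted p = 0.0563). Its levels were 7.30, 4.71 and 31.2 CPM in the knockout-labelled units and 1.26, 0, 0.949 and 0.533 CPM in the control units, without overlap. Ms4a6d rose by 2.70 ± 0.25 (log2, SE; adjusted p = 0.000427), while Ms4a6b and Ms4a4d fell, with log2 fold changes of -1.10 ± 0.18 (adjusted p = 0.00606) and -1.59 ± 0.47 (adjusted p = 0.0485); each of these 7 fits lost the call of Ms4a4d.

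**Figure D5:**
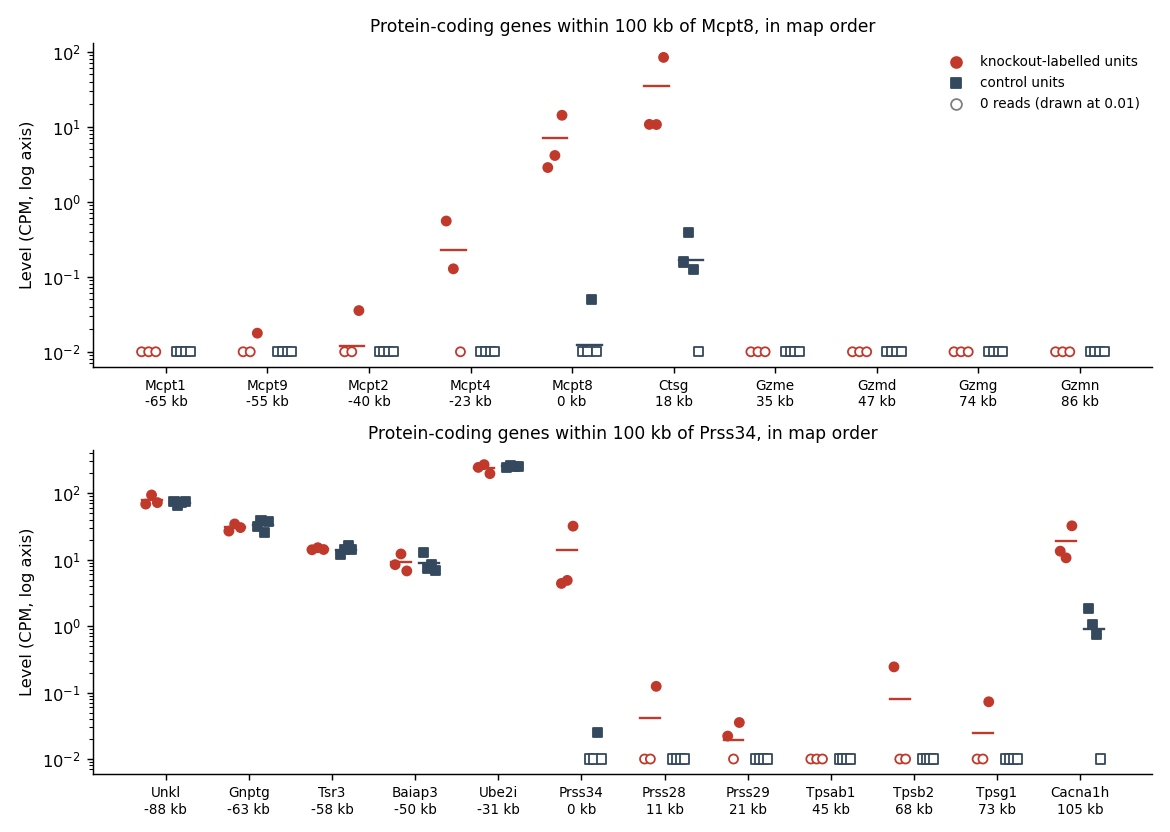
Level in each unit of Mcpt8 and Prss34 and of the protein-coding genes within 100 kb of each (CPM, log axis), in map order, with the distance between gene middles in kb below each name. Circles are knockout-labelled units, squares control units, lines group means of at least 0.01 CPM, and open symbols 0 reads. Most of the related protease genes on either side lie at or near 0 in both groups, while Ctsg next to Mcpt8 is high in the knockout-labelled units.

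The genes most like the 10 in their pattern over the 7 units were found among 11767 genes with a mean of at least 1 CPM, by the root mean square difference between each gene's centred log2(CPM + 0.5) and the mean profile of the 10. The nearest were Ccnb1ip1 (0.119), Vcl (0.141), Alox5 (0.174), Clec5a (0.208), Atp8b4 (0.213), Pi16 (0.220), Ptpn14 (0.226) and Arap3 (0.233). Ccnb1ip1 had 1.81, 1.74 and 5.22 CPM in the knockout-labelled units and 0 in the control units. Vcl, which encodes vinculin, had 15.2, 16.6 and 39.0 CPM in the knockout-labelled units and 3.78, 2.68, 3.32 and 3.26 CPM in the control units. Of these 8 genes, Alox5 is also on the lists tested above.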

How the data were processed

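The deposited tables were kallisto abundance tables, 1 per sequenced sample, run against a transcriptome of GRCm38, per the submitters' processing notes. Neither the version of kallisto nor the annotation release is known from the sources used here. They hold the authors' estimated counts (expected counts per transcript, not normalized), the authors' TPM values, scaled for effective length per the file headers, and the deposited lengths. Per the labels' protocols the kit was not stranded, which leaves overlapping genes indistinguishable; the miRNA genes Mir6949 and Mir7007 lie within Mcpt8 and Cpa3.

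Counts of the 88198 transcripts were summed per gene with the GENCODE annotation of GRCm38; 2079 transcripts without a gene, with 1.17% to 1.28% of the reads, were left out. The 2 samples of a unit differed by 1.44 to 1.90 in chi-square per degree of freedom, and their rounded counts were added. Counts were tested with edgeR 4.0.16 in R 4.3.3 (TMM, filterByExpr, quasi-likelihood test, Benjamini-Hochberg adjustment over 15775 genes, false discovery rate 0.05), after a test on simulated data. CPM values use TMM library sizes, ± is SD for levels and SE for log2 fold changes, and TPM values of a unit are means of its samples. Shared sequence is the percentage of 31-base words also found in another gene. Alternatives used DESeq2 1.42.0, limma 3.58.1, other filters and scalings, single samples, an offset for GC content and length, and each unit left out. The genes, the lists and the rule for names (each of the 10; up to 4 genes per list with the smallest adjusted p; the 2 most abundant per marker list) were chosen with earlier results of these data known; genes that complete a list's count were named after their values were seen.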

Additional observations from a re-analysis of the deposited data

Results flagged for a closer look

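Of 41 values examined over the 4 control units, 9 had a highest or lowest unit whose gap to the next exceeded Dixon's 95% limit. For continuous, normally spread values, chance gives this in about 1 in 20 groups. A gene with reads in only 1 control unit always exceeds the limit, as for Mcpt8, Prss34 and Prg3. That rate therefore does not apply to such counts. Control unit 3 held all control reads of Mcpt8 (0.0499 CPM) and of Prss34 (0.0250 CPM). Control unit 4 was the highest for Epx (0.305 CPM) and for Prg3 (0.152 CPM). Control unit 1 was the highest in 4 cases: Hdc (2.30 CPM), Plcg2 (6.92 CPM), Ccl4 (0.472 CPM) and Spi1 (2.44 CPM). The summed progenitor markers were lowest in control unit 3, at 61.9 CPM. These values lie below those of every knockout-labelled unit.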

How the results depend on the processing

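The edgeR test called 2144 genes in all, 28 list genes higher and 0 lower. Across the other scalings, filters, tests and single samples of each unit, the number of list genes that rose stayed between 25 and 38; it was 30 with the offset for GC content and length. All genes called came to 3542 with the DESeq2 Wald test. List genes that fell numbered 3 with the DESeq2 Wald test, namely Fyn, Il18r1 and Tnf. They numbered 2 with DESeq2 size factors, 10 reads in 3 units, limma-voom, the second sample of each unit, and the GC and length offset. In each of these fits they were 2 of the same 3 genes. In the main test Il18r1 had a log2 fold change of -0.47 ± 0.14 (SE, edgeR adjusted p = 0.0512), and the groups did not overlap. With the replicate block (unit number as a block), 612 genes were called and 14 list genes rose, and with the block and the GC and length offset together 268 and 6. Same-numbered units did not deviate together (correlations of 0.0288, -0.107 and -0.0563). The labels do not say whether same-numbered units belong together, and these correlations cannot settle it. The offset alone moved the share of calls in the higher direction to 63.7%, against 52.1%, and with the block it was 69.4%. Leaving out 1 unit at a time gave 758 to 1905 genes called, 18 to 32 list genes that rose and 0 to 1 that fell; of 21 named list genes, 15 passed in all 7 such fits. All genes called came to 1122 without control unit 2, 758 without control unit 4, 1131 without knockout-labelled unit 2 and 977 without knockout-labelled unit 3. Of the 10 genes, Ms4a2 changed sign in 1 alternative; leaving out 1 unit gave -0.022 to 0.27. Under limma-voom the log2 fold changes of Fcer1a, Mcpt8, Prss34 and Gata2 were 5.70, 7.24, 8.14 and 6.44, that of Epx was 9.23 under the block, and Alox5 ranged between 4.38 and 6.72. The call of Prg3 was lost with limma-voom (4.31) and that of Ptgs2 with no count filter (5.13). The cause of these changes was not tested. A control unit of 12851425 reads allows, at 0 reads, a level of up to 0.236 CPM, and 4 of the 10 genes had at most 5 reads in all controls.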
